A study of Rattus norvegicus with 54 samples.

Results

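The respiratory complex I genes of the rat heart were taken as the genes of the deposited expression table whose symbol starts with Nduf, with copies of a symbol counted once. They numbered 42 of the 10257 genes in the table, from 43 entries, since Ndufa1 was listed in 2 entries with identical values. Of these, 34 encode subunits of the enzyme and 6 encode assembly factors (Ndufaf1, Ndufaf3, Ndufaf4, Ndufaf5, Ndufaf6 and Ndufaf7). Ndufa4 and its paralogue Ndufa4l2 were kept apart as a pair, because the Ndufa4 protein is now placed in cytochrome c oxidase. The members were chosen by symbol, with earlier results of these data known. All 42 belong to the table that the authors had already filtered on expression. Of 36 nuclear subunits listed by name, 32 were in the table, and Ndufa3, Ndufa13, Ndufb1 and Ndufc1 were not analysed here, nor were the 7 subunits encoded in mitochondrial DNA. The remaining members of the subunit class were Ndufa10l1 and the acyl carrier protein Ndufab1.

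Hearts came from 54 wildtype male Wistar rats, aged 7 to 8 weeks at the start, housed singly under 12 h of light and 12 h of darkness with lights on at zeitgeber time 0 (ZT, hours after lights on). C rats (n = 18) were left undisturbed with free access to food. W rats (n = 18) were kept awake in slowly turning drums from ZT2 to ZT10, the rest phase of a nocturnal animal, on the weekdays of 5 weeks with food always at hand, and WRF rats (n = 18) did the same work but had no food during it. All were killed on a day without work, 3 rats per group at each of ZT1, 5, 9, 13, 17 and 21, and whole hearts were crushed with their atria, so that every value is an average over all cell types of the organ. Values are fpkm (fragments per kilobase of transcript, scaled to the mapped reads of the library), which correct for transcript length and can be compared between genes. Read numbers cannot be taken from them, and the library sizes that the study lists elsewhere were not used here.

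Complex I is the entry point of electrons from NADH into the respiratory chain. It oxidises NADH in the mitochondrial matrix, passes the electrons along a chain of iron-sulphur clusters to ubiquinone and pumps protons across the inner membrane. The N module holds the NADH site, the Q module the ubiquinone site, and the proximal and distal membrane arms carry out the pumping together with the subunits encoded in mitochondrial DNA. Assembly factors join or modify the parts during construction and are absent from the finished enzyme. The working heart, whose contraction depends on oxidative phosphorylation, is among the tissues richest in the complex.

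Nuclear genes of the complex are known targets of the transcription factors NRF1 and GABP, and promoter windows of 250 bases before to 50 bases after the annotated start were found for 37 of the 42 members in the RefSeq table of the build GRCr8. Members not listed there include Ndufa8, Ndufa10l1, Ndufaf6 and Ndufb9. The 250 bases before the start are shown for 4 genes, chosen after their values were seen, that mark the range of differences between WRF and C rats described later. Ndufa1 and Ndufa11 are subunits of the proximal arm that were higher in WRF rats once a pair of libraries was left out, Ndufs1 is the subunit with the lowest difference, and Ndufaf5 is the assembly factor with the smallest adjusted p. Capitals mark matches, on either strand, to the NRF1 core CGCANGCG, the ETS core CCGGAAG (bound by GABP) and the GC box GGGCGG. The sequences read 5′ to 3′ along the strand of the gene and lie at chrX:121293556-121293805 (minus strand, Ndufa1), chr9:1637364-1637613 (plus strand, Ndufa11), chr9:72073606-72073855 (minus strand, Ndufs1) and chr3:147961362-147961611 (plus strand, Ndufaf5).
Ndufa1: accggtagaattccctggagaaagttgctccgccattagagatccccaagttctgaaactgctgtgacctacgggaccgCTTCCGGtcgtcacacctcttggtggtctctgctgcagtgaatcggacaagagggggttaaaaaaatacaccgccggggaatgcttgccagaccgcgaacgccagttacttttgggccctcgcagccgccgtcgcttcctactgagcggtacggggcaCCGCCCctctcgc
Ndufa11: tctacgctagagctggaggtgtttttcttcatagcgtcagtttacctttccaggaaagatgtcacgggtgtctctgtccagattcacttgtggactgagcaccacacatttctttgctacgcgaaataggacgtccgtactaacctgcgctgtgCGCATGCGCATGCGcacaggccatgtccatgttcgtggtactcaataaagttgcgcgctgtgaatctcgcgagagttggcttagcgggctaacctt
Ndufs1: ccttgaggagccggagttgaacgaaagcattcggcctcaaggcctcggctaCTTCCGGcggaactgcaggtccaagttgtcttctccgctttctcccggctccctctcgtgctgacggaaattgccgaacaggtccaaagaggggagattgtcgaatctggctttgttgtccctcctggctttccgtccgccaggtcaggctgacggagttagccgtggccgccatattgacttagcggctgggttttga
Ndufaf5: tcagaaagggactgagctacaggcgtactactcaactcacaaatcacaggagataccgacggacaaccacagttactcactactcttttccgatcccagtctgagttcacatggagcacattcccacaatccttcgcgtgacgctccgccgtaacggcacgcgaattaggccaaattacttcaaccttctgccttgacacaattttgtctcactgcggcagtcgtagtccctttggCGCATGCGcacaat

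The windows of Ndufa11 and Ndufaf5 held the NRF1 core, which in Ndufa11 occurred as a pair of overlapping matches from 96 to 83 bases before the start and in Ndufaf5 lay 14 to 7 bases before it. Ndufa1 and Ndufs1 held the ETS core on the opposite strand. Over the full windows, the NRF1 core was found in 12 of the 37 members (32.4%), 10 of 30 subunits and 2 of 5 assembly factors, against 17.4% of the 8148 promoters of genes in the expression table and 7.6% of all 33469 promoters. The ETS core was found in 7 members (18.9%, against 18.4% and 8.75%) and the GC box in 17 (45.9%, against 63.3% and 33.1%). The oestrogen-related receptor site TCAAGGTCA was found in 0 members, against 0.196% and 0.433%. In all, 18 members held an NRF1 or an ETS core and 1 held both. A match describes the letters of the window and not a bound factor.

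In C hearts the subunits were expressed at levels far above those of the assembly factors. The median over the 34 subunits of the C medians was 390 fpkm, against 13.5 fpkm over the 6 assembly factors, a ratio of 29, and the classes did not overlap. Subunit medians ran from 50.7 fpkm (Ndufa10l1) to 1092 fpkm (Ndufb9, of the distal arm), and assembly factor medians from 7.09 fpkm (Ndufaf7) to 29.99 fpkm (Ndufaf3). By module the median was 471 fpkm in the N module (10 genes), 374 in the Q module (5), 326 in the proximal arm (7) and 454 in the distal arm (10). Ndufab1, which also serves mitochondrial fatty acid synthesis, lay at 76.04 fpkm, below every subunit of these 4 modules. Within the N module Ndufs4 was lowest, at 141 fpkm, and Ndufs6 highest, at 631 fpkm. Single alignments were kept for each read, so reads shared by the paralogues Ndufa10 (164 fpkm) and Ndufa10l1 may be split unevenly. Over all 54 rats, Ndufb9 (mean of 1220 fpkm), Ndufa4 (990) and Ndufa5 (869), a Q module subunit, were the most abundant members, and Ndufaf7 (7.23), Ndufaf1 (10.3) and Ndufaf6 (13.02) the least. Ndufa4 and Ndufa4l2, the latter known as a hypoxia-responsive form, lay at 889 and 13.01 fpkm in C rats.

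**Figure D1:**
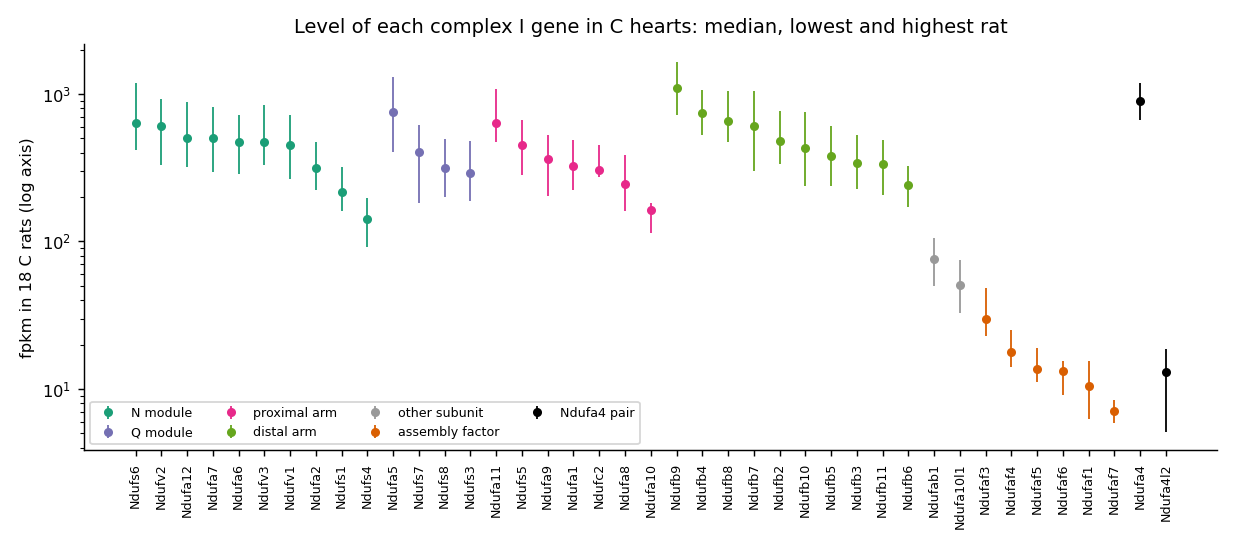
Level of 41 complex I genes in the 18 C hearts (fpkm, log axis); points give the median, bars run from the lowest to the highest rat, and colours give the module. Subunit medians lie between 50.7 and 1092 fpkm, and all 6 assembly factors lie at 29.99 fpkm or lower.

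A pair of WRF libraries, WRF51 (killed at ZT9) and WRF62 (ZT5), stood far below all C hearts in the subunits and in general cardiomyocyte markers. Cardiomyocyte markers (7 of 7 in the table) summed to 738 fpkm in WRF51 and 3971 fpkm in WRF62, against 21774 to 54874 fpkm in C rats and 30907 to 51926 fpkm in the other 16 WRF rats. WRF51 held 1898 fpkm of lung epithelium markers, against 2.90 to 13.8 fpkm in C rats, although only 2 of 7 listed markers were in the table. WRF62 held 937 fpkm of T and B lymphocyte markers (7 of 8 in the table), against 8.21 to 27.5 fpkm, and 142587 fpkm of red cell markers, against 3900 to 69167 fpkm. Atrial cardiomyocyte markers (4 of 4) summed to 11669 fpkm in WRF62 and 65.96 fpkm in WRF51, against a median of 138 fpkm in C rats (48.3 to 55788). The markers of WRF51 thus go against the label of heart tissue, while WRF62 held atrial RNA beside that of lymphocytes and red cells. Results are given with and without both. The part of cell composition in the differences described here was not tested, and in crushed tissue fewer cardiomyocytes and less RNA per cell cannot be told apart.

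In these libraries the subunits lay further below their control levels than the assembly factors did. All 34 subunits lay below the lowest C rat in both, at a median of 21.6% of the C median in WRF51 (10.9% for Ndufs1 to 44.8% for Ndufc2) and 33.2% in WRF62 (24.2% for Ndufab1 to 50.9% for Ndufa10l1). The assembly factors lay at a median of 46.3% in WRF51 (31.4% for Ndufaf6 to 97.1% for Ndufaf7), with 4 of 6 below the lowest C rat, and at 64.2% in WRF62 (34.5% for Ndufaf6 to 86.6% for Ndufaf5), with 5 of 6 below. The distance between the classes, taken per rat as the mean log2 level of the subunits minus that of the assembly factors, was 4.62 ± 0.25 in C rats (SD, n = 18), 3.35 in WRF51 and 3.70 in WRF62. Ndufa4 followed the subunits, at 19.6% and 34.7% of the C median, whereas Ndufa4l2 stood at 121% in WRF51 and 27.9% in WRF62.

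**Figure D2:**
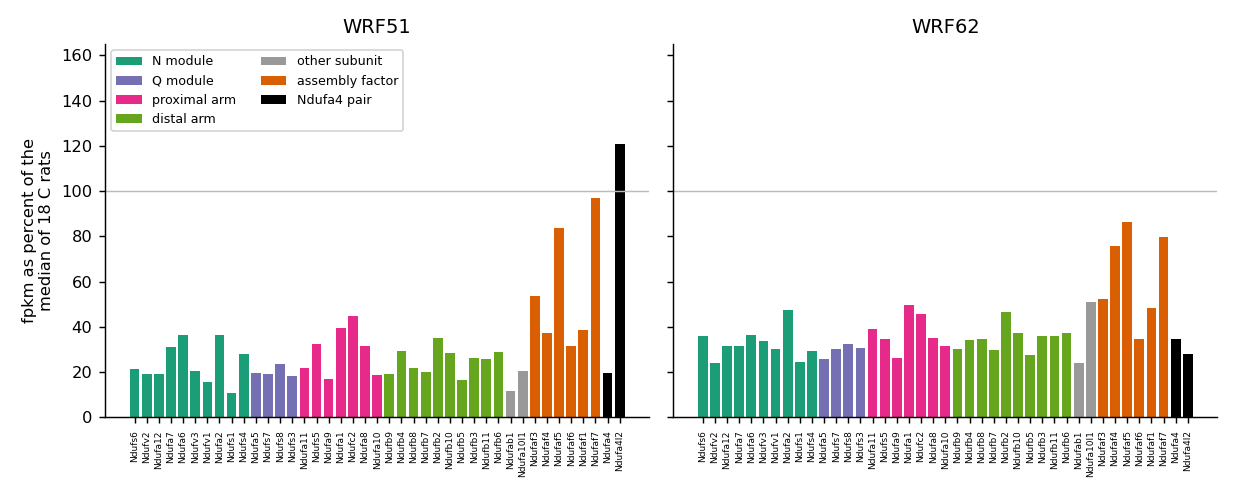
Level of 41 complex I genes in the libraries WRF51 and WRF62 as a percentage of the median of 18 C rats; bars are coloured by module and the grey line marks 100%. Every subunit drawn is below 51%, while Ndufaf7 reaches 97.1% and Ndufa4l2 121% in WRF51.

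Work with food always at hand left the complex I genes close to their control levels. The median log2 difference W minus C, on the scale of log2(fpkm + 1), was 0.00 over the subunits (from -0.09 for Ndufa9 to 0.16 for Ndufa10l1) and 0.01 over the assembly factors (-0.02 to 0.05), against -0.01 over all genes. As ratios of medians, subunits in W rats stood at a median of 1.07 and assembly factors at 1.03 times the C level. All 7 core subunits, which are shared with bacterial forms of the enzyme, had differences just below 0 (-0.08 to -0.00). By the Kruskal-Wallis test adjusted over all genes (adjusted p of at most 0.05) followed by a 2-sided Mann-Whitney test (p under 0.05), 0 members differed between W and C rats, against 0.429% of all genes. At an unadjusted Mann-Whitney p under 0.05 the count was also 0, against 2.64% of all genes, and limma called 0 genes of the whole table. The library W21 (ZT17) held 1441 fpkm of liver markers, against 17.4 to 185 fpkm in C rats, and without it the rank tests again called 0 members between W and C rats.

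The comparison of WRF with C rats asks what working while unable to eat did to the heart, and for complex I its answer rested on WRF51 and WRF62. With all 18 WRF rats, 0 members passed the rank tests, against 8.13% of all genes called higher and 0.721% called lower in WRF rats. The median log2 difference was 0.06 over the subunits (24 of 34 above 0) and 0.03 over the assembly factors (3 of 6), below the 0.08 over all genes. At an unadjusted Mann-Whitney p under 0.05, 13 subunits, 2 assembly factors and Ndufa4 were higher in WRF rats, against 21.4% of all genes. The smallest Kruskal-Wallis adjusted p were those of Ndufc2 (0.061) and Ndufaf5 (0.065). The ratio of medians, which depends less on a few low libraries, was above 1 for 34 of 34 subunits (median of 1.22, from 1.03 for Ndufa10 to 1.37 for Ndufs6) and for 6 of 6 assembly factors (median of 1.08).

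Without WRF51 and WRF62, 9 members were higher in the 16 remaining WRF rats than in C rats by the rank tests, against 5.72% of all genes, and none was lower. They were the subunits Ndufa1, Ndufa11, Ndufa12, Ndufb6, Ndufb11 and Ndufc2, the assembly factors Ndufaf5 and Ndufaf7, and Ndufa4, that is 6 of 34 subunits and 2 of 6 assembly factors. The median log2 difference became 0.30 over the subunits (33 of 34 above 0) and 0.13 over the assembly factors (6 of 6), against 0.03 over all genes. As ratios of medians this was 1.251 for the subunits (1.04 for Ndufa10 to 1.40 for Ndufa6) and 1.11 for the assembly factors. Limma with Benjamini-Hochberg adjustment called 17 subunits, 3 assembly factors (Ndufaf3, Ndufaf5 and Ndufaf7) and Ndufa4 higher without those libraries, against 9.32% of all genes. Between WRF and W rats the same 9 genes were called higher in WRF rats in that setting, against 5.77% of all genes, and 0 members with all rats, against 8.26%.

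**Figure D3:**
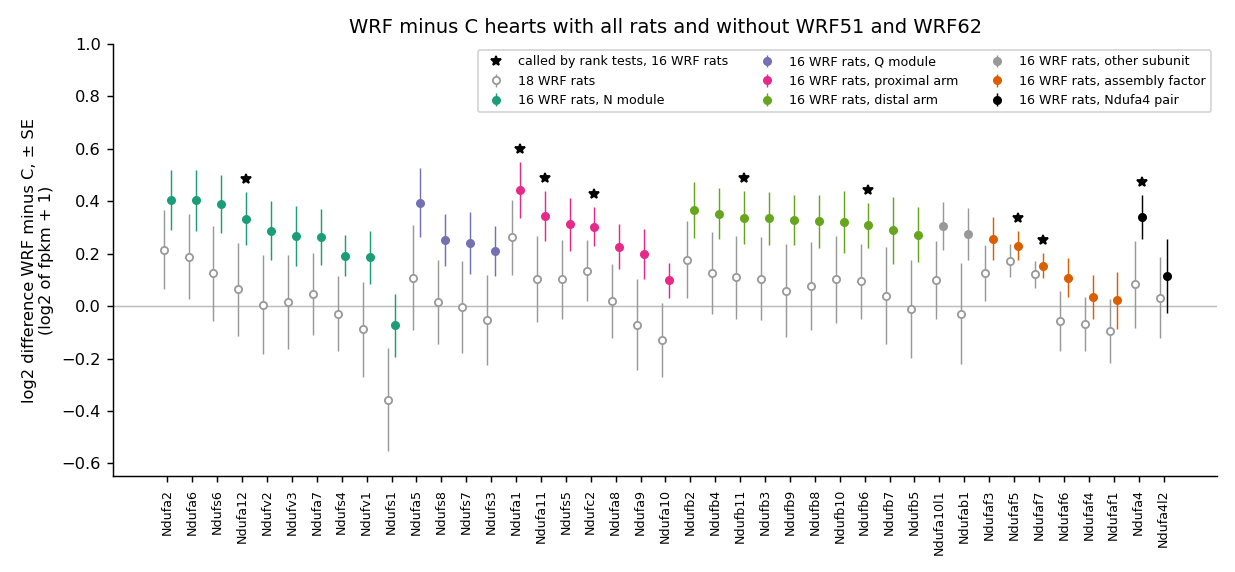
Log2 difference WRF minus C of 41 complex I genes, ± SE from limma on log2(fpkm + 1); open grey circles use all 18 WRF rats and filled circles, coloured by module, the 16 WRF rats without WRF51 and WRF62. Stars mark the 9 genes called by the rank tests with 16 WRF rats; with 18 rats 0 genes were called.

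Among the membrane arm subunits, Ndufa1, a small X-linked subunit, had the largest log2 difference in both settings. It ranged from 224 to 490 fpkm in C rats (median of 326), from 254 to 531 in W rats (median of 350) and from 129 to 629 in WRF rats (median of 433). The 16 WRF rats began at 331 fpkm, just above the C median, with a median of 456, although the groups overlapped. Its log2 difference was 0.26 ± 0.14 (SE) with all rats and 0.44 ± 0.11 without WRF51 and WRF62 (Kruskal-Wallis adjusted p = 0.107 and 0.033). Ndufc2 ranged from 274 to 450 fpkm in C rats (median of 307), 256 to 429 in W rats (median of 323) and 296 to 471 in the 16 WRF rats (median of 415), whose median exceeded all but the highest C rats. The difference of Ndufc2 was 0.14 ± 0.12 with all rats and 0.30 ± 0.07 without the pair (adjusted p = 0.061 and 0.023). Ndufa11, a subunit at the interface of the membrane arms, stood at a median of 639 fpkm among C and 842 among the 16 WRF rats (0.34 ± 0.10, adjusted p = 0.035). In the distal arm, Ndufb2 and Ndufb4 had log2 differences of 0.37 ± 0.11 and 0.35 ± 0.10 without the pair but missed the Kruskal-Wallis threshold (adjusted p = 0.078 and 0.052). At the other end of the membrane arm, Ndufa10 had a difference of -0.13 ± 0.14 with all rats and 0.10 ± 0.07 without the pair. By arm, the median without the pair was 0.33 over the distal and 0.30 over the proximal arm.

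The core subunits, which carry the redox centres, had a smaller median difference than the other subunits in both settings. Their median log2 difference was -0.05 with all rats (2 of 7 above 0) and 0.21 without WRF51 and WRF62 (6 of 7), against 0.10 and 0.32 over the other 27 subunits, and 0 of 7 passed the rank tests in either setting; the difference between these classes was not tested. Ndufs1, the largest core subunit, which holds several iron-sulphur clusters, ranged from 160 to 321 fpkm in C rats (median of 216), 129 to 255 in W rats (median of 234) and 23.5 to 311 in WRF rats (median of 223). Its difference, -0.36 ± 0.20 with all rats and -0.07 ± 0.12 without the pair, was the lowest of all subunits in both settings, and it was the only subunit still below 0 in the second. Without the pair the log2 differences were 0.19 ± 0.10 for Ndufv1, which binds NADH, 0.29 ± 0.11 for Ndufv2, and 0.21 ± 0.10 for Ndufs3. In the Q module, Ndufs7, which lines the ubiquinone site, had a difference of 0.24 ± 0.12, and Ndufs8, a carrier of iron-sulphur clusters, of 0.25 ± 0.10. Among the accessory subunits of the N module, Ndufa2 and Ndufa6 reached 0.40 ± 0.11 and 0.40 ± 0.12, with adjusted p of 0.051 and 0.063. For Ndufa2 the C rats ran from 222 to 475 fpkm and the 16 WRF rats from 302 to 634.

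Once the pair of libraries was left out, 2 of the 6 assembly factors passed the rank tests. The threshold did not follow the size of the difference, since Ndufaf3 had the largest and just missed it. Ndufaf5, which hydroxylates an arginine of Ndufs7, ranged from 11.2 to 18.97 fpkm in C rats (median of 13.7), 12.6 to 17.1 in W rats (median of 15.1) and 11.5 to 19.4 in WRF rats (median of 17.03). Its log2 difference was 0.17 ± 0.06 with all rats and 0.23 ± 0.05 without WRF51 and WRF62 (Kruskal-Wallis adjusted p = 0.065 and 0.024). Ndufaf7, a protein arginine methyltransferase, stood at a median of 7.09 fpkm among C rats (5.84 to 8.40) and 7.71 in the 16 WRF rats (6.67 to 9.38), a difference of 0.15 ± 0.05 (adjusted p = 0.049). Both are enzymes that modify subunits during assembly. Ndufaf3 and Ndufaf4, which bind each other during assembly of the Q module, differed by 0.26 ± 0.08 and 0.03 ± 0.08 without the pair, with adjusted p of 0.052 and 0.760. Ndufaf1, which acts on the membrane arm, had a difference of 0.02 ± 0.11 and Ndufaf6 of 0.11 ± 0.07. Ndufa4 rose by 0.34 ± 0.08 without the pair (adjusted p = 0.036), from a median of 889 fpkm in C rats to 1125 fpkm, and Ndufa4l2, at 0.11 ± 0.14, did not pass.

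These calls depended on the scaling of the libraries and on the control rats used. The summed fpkm of a library ran from 373115 to 654902 in C rats and from 465971 to 749554 in WRF rats. Scaling all libraries to the same total moved the median of all genes from 0.08 to -0.12 with all rats and from 0.03 to -0.15 without WRF51 and WRF62, a shift of more than 0.1. In the latter case the subunits had a median of 0.09 (27 of 34 above 0) and the assembly factors of -0.06 (2 of 6), and the rank tests called 0 genes of the table. With median-of-ratios scaling and without the pair, the medians were 0.28 over the subunits, 0.11 over the assembly factors and 0.01 over all genes, and 0 members passed the rank tests, against 0.877% of all genes called higher, while limma called Ndufa1 and Ndufaf5, against 6.4%. The subunits thus stood above the median of all genes in each of these scalings without the pair, and so did the assembly factors, although their median had a negative sign under equal totals.

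The rats of each group were taken by number as 3 runs of 6, with 1 rat per time in each run, and subunit levels differed between runs of one group. The number of WRF62 lies outside its run. It was placed with the rats from WRF41 to WRF46, which otherwise hold no rat at ZT5. The labels do not say what a run stands for. As the median over subunits of the ratio to the C median, the run C25 to C30 lay at 0.653 to 0.954 (median of 0.869), and C33 to C38 at 1.04 to 1.496 (median of 1.31), without overlap. In W rats, the run W17 to W22 lay at 0.666 to 0.946, below the 1.12 to 1.38 of the odd-numbered run W1 to W11. The 16 WRF rats lay at 1.05 to 1.57 (median of 1.22), within the span of the run C33 to C38 apart from the highest rats. Without that run of 6 C rats, 20 subunits and 3 assembly factors were called higher in WRF rats by the rank tests, against 14.6% of all genes, and 10 members differed between W and C rats, against 10.5%. Without the low run C25 to C30 instead, and with all WRF rats, 0 members were called and the median log2 difference WRF minus C over the subunits was -0.12, against 0.22 without C33 to C38. The assembly factors spread less, with per-rat medians of 0.868 to 1.16 in C rats.

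Markers of atrial cardiomyocytes varied widely between hearts, and their ranges overlapped between the groups. The median of their sum (4 of 4 in the table) was 138 fpkm for C rats (48.3 to 55788), 317 for W rats (45.2 to 62455) and 1154 for WRF rats (60.9 to 54998). Without WRF51 and WRF62 the median log2 difference WRF minus C over these markers was 1.51, with 0 of 4 passing the rank tests, and over the cardiomyocyte markers it was 0.14, with 0 of 7. It was -0.35 over the endothelial markers, of which 1 of 3, Kdr, was called lower (limma called Cdh5 too, at -0.57), 0.28 over fibroblast and 0.28 over macrophage markers, 0.27 over T and B lymphocyte, 0.11 over lung epithelium, 0.40 over red cell and 0.60 over liver markers, with 0 called in each of these lists. The part of these cell types in the differences of the complex I genes was not tested. The C and the W rat with the most atrial RNA, C27 and W17, also had the lowest subunit levels of their groups, at 0.653 and 0.666 times the C median. The WRF rat with the most, WRF44, did not, with a subunit ratio of 1.17. Without WRF51 and all libraries above 1000 fpkm of atrial markers, which left 13 C, 12 W and 8 WRF rats, the median log2 difference was 0.31 over the subunits (33 of 34 above 0) and 0.15 over the assembly factors (6 of 6), against 0.04 over all genes. At that size the rank tests called 0 genes of the table, and limma called 9 subunits and 0 assembly factors higher in WRF rats, against 2.07% of all genes.

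By time of death, with all rats, subunits in WRF rats stood highest relative to C rats at ZT21 and ZT1. Without WRF51 and WRF62 the difference at ZT5 was close to that at ZT1, as given below. Times follow the titles, and for 12 WRF rats the time label differs. Among these, WRF45 and WRF54 at ZT21 are labelled ZT17, and WRF46 and WRF55 at ZT1 are labelled ZT21. A peak around the end of the night thus depends on the titles. At ZT21 the per-rat subunit ratios were 1.37, 1.44 and 1.55 in WRF rats and 0.898, 0.901 and 1.496 in C rats, and at ZT1 they were 1.10, 1.39 and 1.41 against 0.839, 1.01 and 1.11. The WRF rats were thus above most C rats at these times, with 1 C rat of the run C33 to C38 within their span at each time. At ZT5 and ZT9 the ratios in WRF rats were 0.332, 1.05 and 1.57, and 0.216, 1.12 and 1.18, in which the lowest values are WRF62 and WRF51. The median log2 difference over subunits was 0.41 at ZT1, 0.07 at ZT13, 0.25 at ZT17 and 0.45 at ZT21. It was -0.20 at ZT5 and -0.62 at ZT9 with all rats, and 0.39 and 0.15 without the pair. The assembly factors showed smaller values of the same sign, with 0.22 at ZT1, 0.06 at ZT13, 0.13 at ZT17 and 0.19 at ZT21, and at ZT5 and ZT9 -0.09 and -0.21 with all rats, or 0.18 and 0.09 without the pair. W rats had median differences between -0.03 and 0.12 over subunits at every time.

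**Figure D4:**
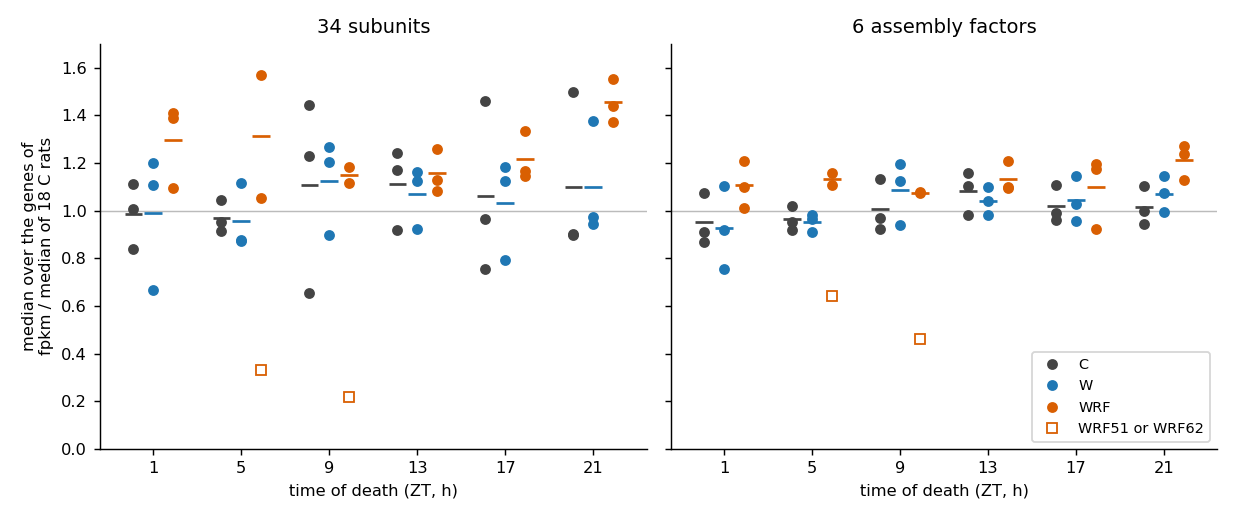
Median over the 34 subunits (left) and the 6 assembly factors (right) of the fpkm in each rat divided by the median of 18 C rats, by time of death (ZT in hours) and group; short lines are means of the rats at that time without WRF51 and WRF62, which are drawn as open squares. Those libraries are the lowest in the subunits, at 0.216 and 0.332.

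No member differed between groups at a single time after adjustment over all genes in limma, with or without WRF51 and WRF62, and neither did any other gene of the table. At an unadjusted limma p under 0.05 with all rats, Ndufaf5 was higher in WRF rats at ZT1 (0.38 ± 0.15), against 7.77% of all genes differing, and Ndufa11 was lower at ZT9 (-0.82 ± 0.40), against 8.28%, where WRF51 held 139 fpkm and the other WRF rats 664 and 808. At ZT5, ZT13, ZT17 and ZT21 the count of members was 0, against 17.5%, 4.58%, 2.69% and 2.23% of all genes. Without the pair the members were Ndufa11 and Ndufaf5 at ZT1 (against 14.3%), Ndufaf5 at ZT5 (4.91%), none at ZT9 (1.77%) or ZT13 (13.3%), Ndufa1 and Ndufaf5 at ZT17 (6.44%), and 6 subunits and Ndufa4 at ZT21 (5.68%). The subunits at ZT21 were Ndufa1 (0.64 ± 0.29), Ndufa10l1, Ndufab1, Ndufb4, Ndufb9 and Ndufc2 (0.45 ± 0.19). Without the pair the spread is set by fewer rats, and at ZT5 and ZT9 only a pair of WRF rats is left.

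Counting genes for which all 3 WRF rats exceeded all 3 C rats gave 11 subunits and Ndufaf5 at ZT1, where 17.7% of all genes did so. At ZT21 the count was 9 subunits, Ndufaf6 and Ndufa4, against 2.33% of all genes. It was 0 members at ZT5, ZT9, ZT13 and ZT17, against 8.85%, 1.09%, 28.7% and 3.43%. The WRF rats at ZT5 and ZT9 include WRF62 and WRF51, in which all 34 subunits lay below the lowest C rat. The subunit count at these times was thus 0 whatever the other rats held. At ZT21 Ndufa1 held 470, 485 and 527 fpkm in WRF rats against 253, 288 and 437 in C rats, and Ndufc2 415, 434 and 471 against 275, 314 and 381. Ndufaf5 stood at 16.3, 17.9 and 18.3 fpkm in WRF rats at ZT1 against 11.2, 12.6 and 16.1 in C rats. It was the member with a lower unadjusted p than any other at ZT1, ZT5 and ZT17 without the pair. At ZT5 Ndufs1 had the smallest p of the subunits with all rats. The WRF rats held 53.1 (WRF62), 182 and 255 fpkm and the C rats 216, 275 and 321. Its log2 difference was -0.98 with all rats and -0.31 without the pair. At ZT9 Ndufv3, an N module subunit, held 97.2 (WRF51), 504 and 574 fpkm in WRF rats and 332, 694 and 765 in C rats. The log2 difference of Ndufv3 was -0.88 with all rats and -0.06 without the pair.

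A daily rhythm, fitted as a cosine of 24 h to the fpkm of the 18 rats of a group, passed adjustment over all genes for 0 members in any group. The share of all genes that passed adjustment is not given here, so this 0 does not set the members apart from other genes. At an unadjusted p under 0.05, 0 members were rhythmic in C rats, against 5.91% of all genes, with Ndufc2 (p = 0.275), Ndufaf6 (p = 0.339) and Ndufaf5 (p = 0.382) the lowest. In W rats 3 members were below that limit, among them Ndufs1 (p = 0.030) and Ndufaf1 (p = 0.0075) with fitted peaks at ZT12.9 and ZT13.4, against 3.05% of all genes. In WRF rats 6 subunits (Ndufa11, Ndufa12, Ndufb10, Ndufc2, Ndufs6 and Ndufs7) and 3 assembly factors (Ndufaf3, p = 0.021, Ndufaf5, p = 0.012, and Ndufaf7, p = 0.011) were below it, against 6.35% of all genes, with fitted peaks from ZT18.5 to ZT21.0. Without WRF51 and WRF62 there were 6 subunits (Ndufa12, Ndufb7, Ndufb10, Ndufs6, Ndufs7 and Ndufs8) and Ndufaf3 and Ndufaf5, against 8.08% of all genes, with peaks from ZT20.7 to ZT23.9.

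The size and the time of the fitted rhythm in WRF rats moved when that pair was left out. The median relative amplitude (amplitude over mean) of the subunits was 0.0686 for the C group, 0.0547 for the W group, 0.228 for the WRF group and 0.106 for the 16 WRF rats. Over all genes it was 0.0806, 0.0727, 0.196 and 0.112, values close to those of the subunits in each group. The mean fitted peak of the subunits was ZT14.2 in C and ZT14.3 in W rats, and ZT20.5 in WRF rats or ZT23.1 without the pair. Peaks within 3 h of the mean of their group were found for 33 of 34 subunits in WRF rats in both settings, 30 in C rats and 28 in W rats. The libraries of the pair fall at ZT5 and ZT9, opposite the fitted peak. In the test of the rhythm difference itself (an F test in limma on both terms of the cosine), 0 members passed adjustment between WRF and C rats (smallest adjusted p = 0.618). The share of all genes that passed it is not given here either. At an unadjusted p under 0.05 the count was 2, against 5.76% of all genes, with the lowest for Ndufc2 (p = 0.037), and between W and C rats it was 0, against 1.83%.

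**Figure D5:**
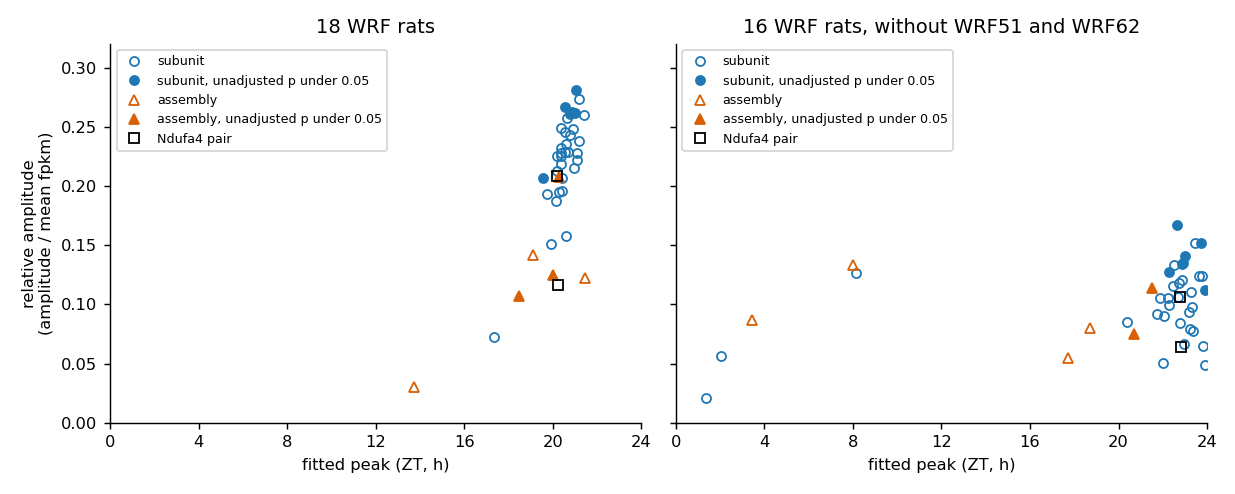
Relative amplitude (amplitude over mean fpkm) against fitted peak time (ZT in hours) of the 24 h cosine in WRF rats, for all 18 rats (left) and without WRF51 and WRF62 (right); circles are subunits, triangles assembly factors, squares the Ndufa4 pair, and filled symbols have an unadjusted p under 0.05. The median amplitude of the subunits falls from 0.228 to 0.106 and their mean peak moves from ZT20.5 to ZT23.1.

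Genes that work with complex I were examined in lists by the same tests. Over all genes, the rank tests called 8.13% higher in WRF than in C rats with all rats and 5.72% without WRF51 and WRF62. At these shares 0 or 1 call says little in lists this short. Of 11 further assembly factors without the Nduf name, 7 were in the table and 1 was higher in WRF than in C rats both with and without WRF51 and WRF62: Tmem126b, a membrane protein of the assembly complex for the proton-pumping arm, at 0.25 ± 0.07 with all rats (Kruskal-Wallis adjusted p = 0.036) and 0.29 ± 0.06 without the pair (0.024). Its median was 16.2 fpkm in C and 20.5 fpkm in WRF rats. Timmdc1, which acts at the same stage, had differences of 0.16 ± 0.07 and 0.22 ± 0.07 and missed the threshold of the rank tests. Limma called Timmdc1 without the pair (adjusted p = 0.026). Complex II (7 of 8 in the table) had 0 members called by the rank tests in both settings. Its assembly factor Sdhaf1 stood at 0.34 ± 0.11 without the pair, which limma called (adjusted p = 0.042). Of 11 regulators of respiratory genes, the rank tests called 0 with all rats and 1 without the pair, the mitochondrial transcription factor Tfam (0.14 ± 0.04, adjusted p = 0.042). The receptor Esrrg had a difference of -0.64 ± 0.22 with all rats, which limma called (adjusted p = 0.043) and the rank tests did not (0.091), and of -0.49 ± 0.21 without the pair, which neither called (0.107 and 0.176). Limma also called Ppargc1b lower with all rats (-0.42 ± 0.14, adjusted p = 0.044), but not without the pair (0.109). The matrix enzymes that produce NADH (9 of 10) and the matrix proteases (5 of 6) had 0 calls in both settings. In the former, Pdhb of pyruvate dehydrogenase and Mdh2, malate dehydrogenase, differed by 0.21 ± 0.08 and 0.17 ± 0.08 without the pair.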

How the data were processed

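PolyA RNA of 54 rat hearts was sequenced in directional libraries of 76-base reads. The authors aligned them to rn6 with TopHat2 (1 alignment kept per read), estimated FPKM with Cufflinks and deposited genes above 1 fpkm in at least 18 rats; versions and annotation are not given in the sources used here. FPKM hold no counts, the study's list of library sizes was not used here, and 0 columns were left out. Group and time came from titles; for 12 WRF rats the time label differs.

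As in the study's methods, groups were compared with Kruskal-Wallis tests (Benjamini-Hochberg over 10257 genes) and 2-sided Mann-Whitney tests (scipy 1.17.1). For differences and SE, log2(fpkm + 1) was fitted in limma 3.58.1 under R 4.3.3 with a variance trend; rhythms were fitted by harmonic regression (24 h). Python 3.11.15, numpy 2.4.6, pandas 2.3.3 and matplotlib 3.10.9 were used. The methods were tested on simulated data. P-values measure the spread between rats.

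Members, gene lists and tests were chosen with earlier results of these data known. Named were all Ndufaf genes, the Ndufa4 pair, 7 core subunits, the 6 largest and 4 smallest differences WRF minus C, the 3 smallest rhythm p per group, the 2 smallest p per time, the 3 highest and lowest levels and, in each other list, the 2 smallest p; any further gene was chosen after seeing its values, and 1 member is counted within its class but not reported by name here. Alternatives were the libraries and runs left out, scalings, filters, pseudocount, tests and time labels. Leaving out atrial-rich libraries, and the pair left out together with limma or another scaling, were added after seeing the data. Promoters came from RefSeq (GRCr8), whose build differs from rn6.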

Additional observations from a re-analysis of the deposited data

Results flagged for a closer look

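Ndufaf4, an assembly factor of the Q module, lay on opposite sides of the C rats in W rats at neighbouring times. At ZT9 all 3 W rats (19.6, 22.3 and 22.7 fpkm) lay above all 3 C rats (14.1, 15.8 and 17.7 fpkm), and the mean was higher by 5.67 fpkm. At ZT13 all 3 W rats (17.6, 17.7 and 18.7 fpkm) lay below all 3 C rats (21.9, 21.9 and 25.1 fpkm), with a mean difference of -5.012 fpkm. The difference between these times was not tested. All 3 W rats were above all 3 C rats for 1.56% of all genes at ZT9, and Ndufaf4 had a Kruskal-Wallis adjusted p of 0.737 across the groups.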

How the results depend on the processing

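Of 273 alternative values of the summary results, 233 were counted as unchanged and 40 as moved. A count was unchanged if it was equal or within a set factor. A median was unchanged if it shifted by less than the SD between C rats, whatever its sign. That SD was 0.32 over subunits, 0.11 over assembly factors and 0.25 for the gap between them. By this wide rule the subunit median WRF minus C counts as unchanged although it went from 0.06 to 0.30 without WRF51 and WRF62. Leaving out a run of W rats cannot move a median WRF minus C, yet is counted too. The tally therefore does not measure how stable the results are. The counts of subunits and of assembly factors called between WRF and C rats, both 0 with all rats, became 1 and 1 without WRF51, 1 and 1 without WRF62 (Ndufc2 and Ndufaf5), 6 and 2 without both, 1 and 1 when genes below a mean of 5 fpkm were dropped, and 17 and 3 with limma without both. Members called between WRF and W rats, 0 with all rats, numbered 2 without WRF51, 2 without WRF62, 9 without both and 2 with the mean filter. Leaving out a run of 6 rats gave 0 to 20 subunits and 0 to 3 assembly factors called between WRF and C rats, 0 to 10 members between W and C, and 0 to 13 between WRF and W rats; the highest counts came without C33 to C38, and without the WRF run that holds WRF51 or the one that holds WRF62, 0 genes of the table were called. The median log2 difference WRF minus C then ran from -0.12 to 0.22 over subunits and -0.05 to 0.09 over assembly factors, and the gap between them from -0.13 to 0.13. The median of the assembly factors was -0.18 under equal totals and 0.15 without WRF51 and the atrial-rich libraries. At single times 0 to 3 members passed adjustment, the 3 including Ndufa10 and Ndufs1 at ZT5 without the run of WRF51. Of all genes, the rank tests called 8.13% higher in WRF than C rats with all rats, 5.72% without both and 14.6% without C33 to C38. Limma called 9.32% higher without both. Against W rats the rank tests called 8.26% higher with all rats and 5.77% without both. Between W and C rats they called 10.5% without C33 to C38. Shares for the other settings are not given here, so those counts do not set the members apart from other genes.

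Counts of rhythms at an unadjusted p changed with several settings. The 6 rhythmic subunits of WRF rats (6.35% of all genes) became 0 without WRF51 (4.88%), 0 under equal totals (7.98%), 0 with the label times (1.79%), 0 on the log scale (8.39%) and 10 with a Kendall correlation (6.77%), and 0 to 17 when a run was left out (0 at 3.02% and 2.14%, 17 at 11.2%). The 3 assembly factors became 0 under equal totals, 0 with the label times and 1 to 2 when a run was left out. In W rats the 3 rhythmic members (3.05% of all genes) became 1 under equal totals (2.29%), 1 with the Kendall correlation (1.56%) and 1 to 3 when a run was left out, and in C rats 0 to 1. The cause of these changes was not tested. The 26 named members, uncalled with all rats, stayed uncalled in 467 of 494 alternatives and gained a call in 27, for 14 members. A reversal of a call could therefore not occur.

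C and W rats share 12 numbers (24 rats), but the correlations of same-numbered rats ran from -0.185 to 0.647, with 6 over 0.1 and 1 rat closest to its own number, so the numbers were not taken to pair animals. These rats leave out the low run C25 to C30 and the run W1 to W11. With the replicate block, 33 members had an unadjusted limma p under 0.05 between W and C rats (16.6% of all genes), against 26 without it (8.65%), all 33 and all 26 lower in W rats, and 0 were called after adjustment either way.

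The limits lie in 3 rats per group and time, in values without read counts, in run-to-run differences as large as those between groups, and in hearts of mixed atrial content. Low assembly factors, at 7.09 to 29.99 fpkm, rest on fewer reads per base than the subunits.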
